A study of Mus musculus with 13 samples.

Results

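The Hox genes were examined in peak lists from 12 chromatin immunoprecipitation and sequencing (ChIP-seq) libraries of LβT2 cells, a mouse line of the gonadotrope type, the pituitary cell that makes gonadotropins. Members were the genes whose name in any of the 12 deposited peak annotation tables is Hoxa, Hoxb, Hoxc or Hoxd followed by digits, with their peaks no farther than 100000 bp from the gene's start. The rule found 4 genes, Hoxa7, Hoxc4, Hoxc6 and Hoxd12, of 28467 gene names, and 5 of 538751 peaks. RefSeq's mouse table (GRCm38.p6) holds 39 Hox genes, so 35 were the named nearest gene of no peak in any library. No peak named for a Hox gene lay outside the limit, and the farthest inside it was at Hoxc4, 10869 bp from the start.

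All libraries came from cells that carry a lentiviral, doxycycline-inducible FLAG-tagged mouse FOXL2, a forkhead transcription factor, and that received doxycycline for 48 h. A recovery of 24 h is also listed for every library. After 2 h in medium with 2% serum the cells were given vehicle, or activin A at 1 nM, for 1 h. Activin A is a hormone of the TGF-beta family, and its receptors phosphorylate SMAD2 and SMAD3, which then enter the nucleus and bind DNA. Each treatment had 2 libraries each for SMAD2/3, for the FLAG tag (called FOXL2 below) and for acetylated lysine 27 of histone H3 (H3K27ac), which marks promoters and enhancers in use. The labels call these duplicates, each a pool of several plates of the transduced line. They do not say that replicates were separate experiments, so the p-values measure only the spread between these libraries. The FOXL2 seen here is the induced, tagged protein. Reads per library are unknown from the files, and a site with no called peak is not shown to lack binding or acetylation.

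Hox genes encode homeodomain transcription factors that give cells along the body axis their regional identity. In mice they lie in 4 clusters on separate chromosomes, in an order that follows where and when each gene is used, so that low paralogue numbers mark the anterior end and high numbers the posterior end. In cells that do not use them, whole clusters are commonly kept silent under Polycomb-deposited methylation of lysine 27 of histone H3, the residue that carries the acetylation measured here. The anterior pituitary, with its gonadotropes, grows from oral ectoderm, anterior to the domains of Hox expression.

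RefSeq promoter windows (300 bases from upstream to just past a start, GRCm38.p6) were at hand for 22 of the 39 Hox genes, as 24 windows. None of the 24 was overlapped by a peak of any library, against 30.3% of 32851 windows overlapped by an H3K27ac peak, 7.21% by a FOXL2 peak and 0.524% by a SMAD2/3 peak of at least 1 library. Those of 3 members are shown, none of them overlapped by the member's peak. That of Mtx2, the gene next to Hoxd1, is added, as an H3K27ac peak overlapped it in all 4 libraries. The Hoxc4 window is at a start inside the gene, downstream of the Hoxc4 peak. It is not at the annotation's start, position 103018934, from which that peak's distance was measured and whose sequence was not at hand. Likewise the Hoxa7 window is at RefSeq's gene end, 1820 bp from the annotation's start. The distances of the Hoxa7 peak were measured from that start, position 52220393. Hoxc6 is named only. Each is written 5′ to 3′ on the gene's own strand, with capitals for every match to GTAAACA (a forkhead motif), CAGAC (a SMAD motif) or TGATTNAT (a joint motif of HOX and PBX proteins) on either strand.
Hoxa7 (chr6:52218524-52218823, minus strand): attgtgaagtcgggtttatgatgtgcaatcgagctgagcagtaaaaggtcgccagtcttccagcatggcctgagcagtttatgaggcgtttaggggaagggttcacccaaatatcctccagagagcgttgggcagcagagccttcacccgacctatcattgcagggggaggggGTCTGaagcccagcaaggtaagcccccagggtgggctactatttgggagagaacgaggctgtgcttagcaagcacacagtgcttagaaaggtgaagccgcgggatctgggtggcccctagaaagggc
Hoxc4 (chr15:103034145-103034444, plus strand): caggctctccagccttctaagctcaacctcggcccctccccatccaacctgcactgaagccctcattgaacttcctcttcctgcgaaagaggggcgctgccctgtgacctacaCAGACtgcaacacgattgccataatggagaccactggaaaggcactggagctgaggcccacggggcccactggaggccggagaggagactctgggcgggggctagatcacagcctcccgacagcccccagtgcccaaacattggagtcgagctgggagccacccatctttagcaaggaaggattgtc
Hoxd12 (chr2:74674763-74675062, plus strand): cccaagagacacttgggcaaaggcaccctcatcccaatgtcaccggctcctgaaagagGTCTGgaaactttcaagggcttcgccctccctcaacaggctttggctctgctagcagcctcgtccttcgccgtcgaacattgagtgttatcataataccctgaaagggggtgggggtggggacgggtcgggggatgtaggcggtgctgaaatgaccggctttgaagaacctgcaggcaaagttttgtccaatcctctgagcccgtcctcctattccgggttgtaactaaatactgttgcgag
Mtx2 (chr2:74825562-74825861, plus strand): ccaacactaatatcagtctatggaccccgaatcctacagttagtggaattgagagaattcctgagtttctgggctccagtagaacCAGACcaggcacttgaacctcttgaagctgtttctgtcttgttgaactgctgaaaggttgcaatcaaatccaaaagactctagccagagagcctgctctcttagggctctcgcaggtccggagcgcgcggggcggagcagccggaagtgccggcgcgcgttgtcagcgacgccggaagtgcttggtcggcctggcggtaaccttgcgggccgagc
Each of the 4 windows held 1 match to CAGAC and none to the other motifs. Over the 24 Hox windows, CAGAC or its reverse complement was in 9 (37.5%), against 49.5% of 32544 different windows. GTAAACA was in none of the 24, against 3.66%, and TGATTNAT was in 2 (8.33%), those of Hoxa2 and Hoxd11, against 3.23%. None of the 3 motifs is part of another. Median GC content was 57.6% in the Hox windows and 53% in all.

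The acetylated members were Hoxa7 and Hoxc4, both of them only in activin libraries. Hoxa7 belongs to the central paralogues, which pattern the trunk. Its H3K27ac peak ran over chr6:52221404-52221717 (314 bp) in activin replicate 1 and chr6:52221494-52221737 (244 bp) in activin replicate 2, centred at -1167 and -1222 bp from the start used in the deposited annotation, a minus sign meaning upstream. That annotation places it in exon 1 of 3 of ENSMUSG00000038236, while by RefSeq's gene ends it lay between the gene bodies, 2.8 kb from Hoxa7 and 1.4 kb from Hoxa9. The authors' fold enrichment was 3.6 in activin replicate 1 and 5.15 in replicate 2, with −log10 q of 4.95 and 9.15. By −log10 q the peak stood at percentile 53.7 of 41763 peaks and percentile 78.7 of 38995, where 100 is the strongest. Neither vehicle library had a peak there, so the Hoxa7 peak was in the middle or upper part of both activin lists and below the calling threshold in both vehicle lists.

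Hoxc4 is the most anterior gene of the Hoxc cluster in mouse. Its H3K27ac peak, chr15:103029670-103029937 (268 bp), lay in intron 1 of 3 of ENSMUSG00000075394 and was called in activin replicate 2 alone. The fold enrichment was 3.33 and −log10 q was 2.07, at percentile 19.8 of that list. It was a weak peak in 1 of 4 libraries.

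The FOXL2 peaks named for members were at Hoxc6, another central gene, and Hoxd12, a posterior gene used in limb and urogenital patterning. Both were called in activin replicate 2 alone. The Hoxc6 peak (chr15:103003051-103003211, 161 bp, intron 1 of 1 of ENSMUSG00000001661) was 2602 bp downstream of the start, with a fold enrichment of 5.87 and −log10 q of 7.72, at percentile 27.6 of 94006 peaks. The Hoxd12 peak (chr2:74677607-74677787, 181 bp, at the transcription end of ENSMUSG00000001823) was 2684 bp downstream, with a fold enrichment of 4.12 and −log10 q of 4.80, at percentile 11.8. Both stood in the lower part of the list, and the other activin library had neither.

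Merged over the 4 libraries of a target, the member peaks made 2 FOXL2 and 2 H3K27ac regions. The Hoxa7 region was the single activin-only one, meaning a peak in both activin and in neither vehicle library, a call that 5.82% of 48805 H3K27ac regions received (6.31% were vehicle-only). The Hoxc4 region was in 1 library alone, as were 28.1% of all H3K27ac regions. Both FOXL2 regions were in 1 library alone, as were 22.7% of 107234 FOXL2 regions, while 8.72% were activin-only and 3.25% vehicle-only. No Hox region of either target was in all 4 libraries, against 47.1% of all FOXL2 and 47.1% of all H3K27ac regions. SMAD2/3 had no Hox region, in a set of 7521 regions where 54.1% were activin-only, 0.0266% vehicle-only, 1.54% in all 4 libraries and 39.6% in 1 library alone.

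Member peaks per library were few, and the counts could not separate the treatments. H3K27ac gave 0 and 0 under vehicle, and 1 and 2 under activin, a difference of 1.5 in the means, with no overlap between the treatments (exact permutation test, two-sided, p = 0.333, the smallest that 2 libraries against 2 can give; 1 after Benjamini-Hochberg adjustment over 15 comparisons). The length they covered was 0 and 0 bp with vehicle and 314 and 512 bp with activin, a difference of 413 bp (exact permutation p = 0.333, adjusted p = 1). With peaks of −log10 q of at least 5 alone, the H3K27ac differences were 0.5 peaks and 122 bp and the treatments overlapped (exact permutation p = 1 for both). FOXL2 gave 0 and 0 with vehicle and 0 and 2 with activin, so the groups shared the value 0 and the difference of 1 rested on activin replicate 2 (exact permutation p = 1). SMAD2/3 gave 0 in all 4 libraries.

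**Figure D1:**
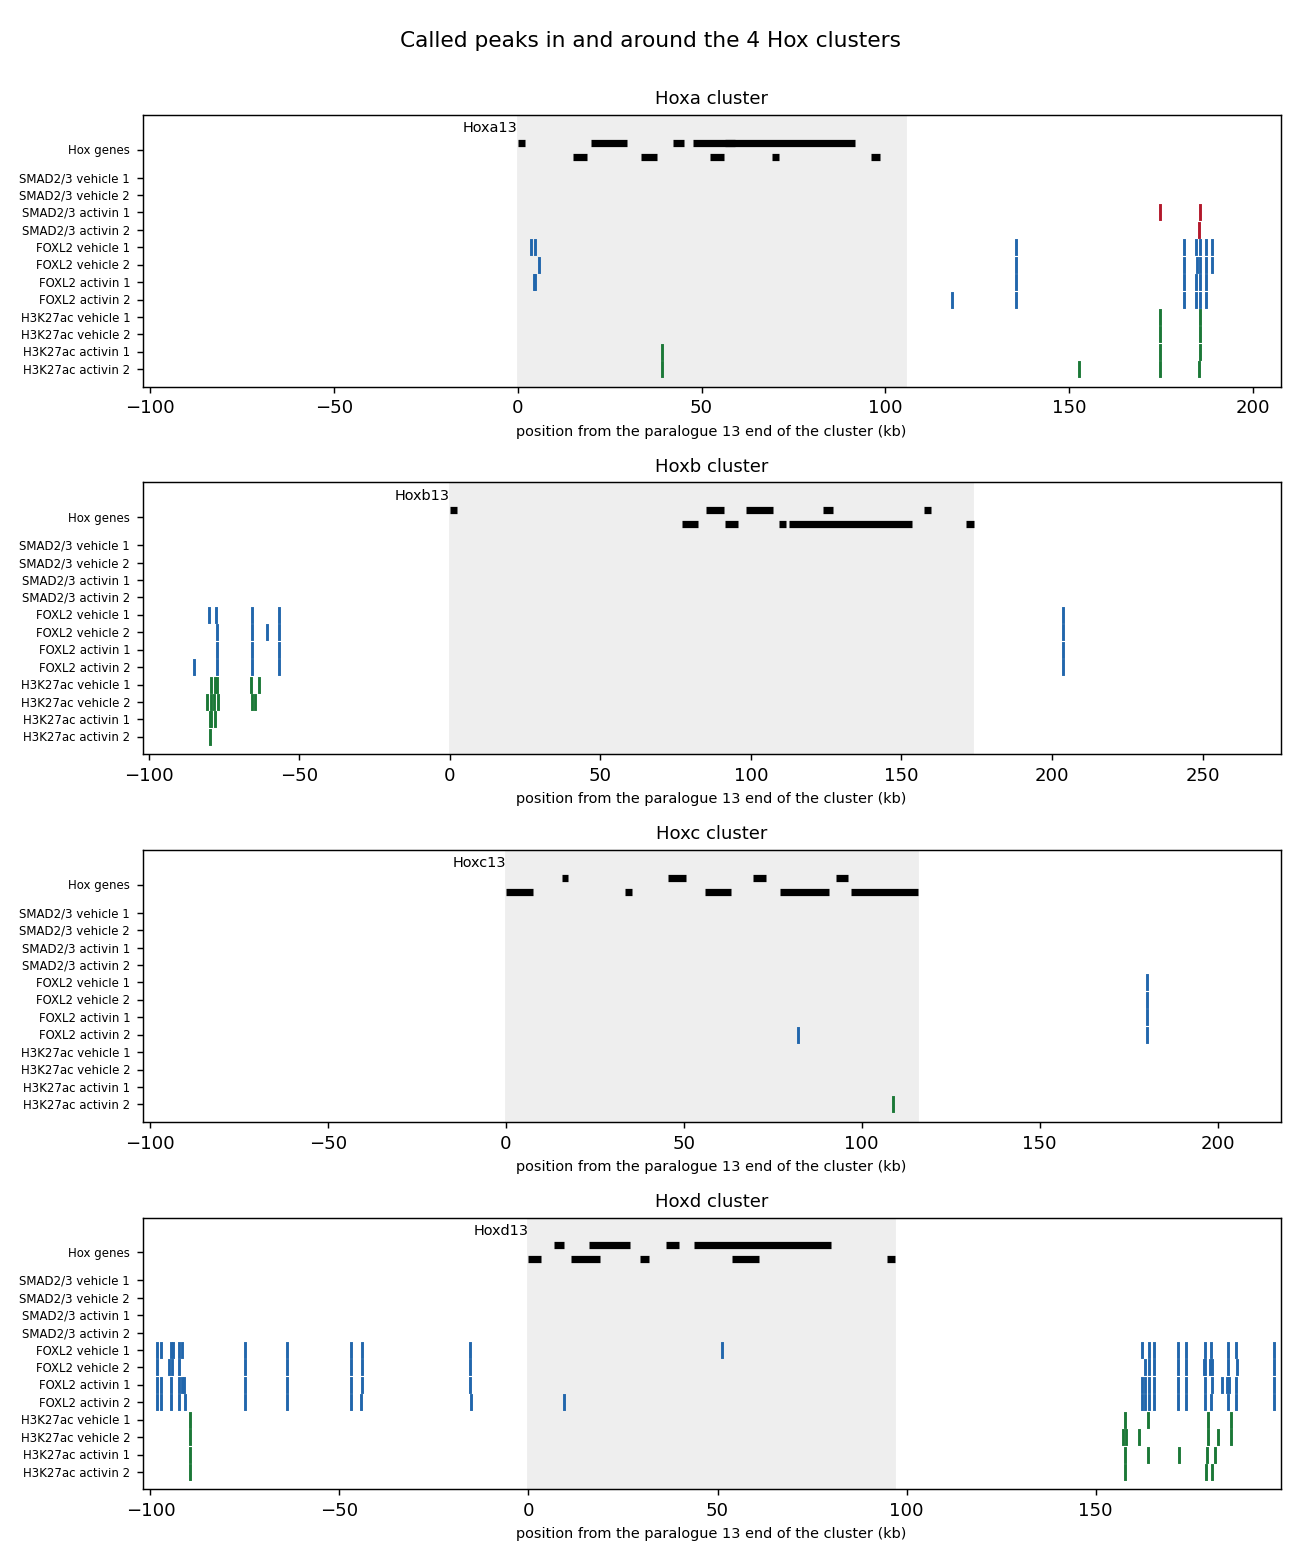
Peaks called in each of the 12 libraries (coloured ticks, 1 row a library) along the 4 Hox clusters and 100 kb on either side, by position in kb from the end with paralogue 13; grey marks the cluster and black bars 38 Hox genes. Ticks are dense on both sides of the Hoxd cluster, to the right of Hoxa and to the left of Hoxb, and inside the grey areas no column of ticks runs through all 4 libraries of a target.

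Counting every peak centred in a cluster, whatever its gene name, added no H3K27ac peak and 6 FOXL2 peaks, 4 of them in vehicle libraries. From the first to the last Hox gene the Hoxa cluster covers 105.5 kb, Hoxb 173.9 kb, Hoxc 115.7 kb and Hoxd 96.9 kb, 492.1 kb together. H3K27ac had 0 and 0 peaks there with vehicle and 1 and 2 with activin, the same peaks as above. This is 0, 0, 2.03 and 4.06 peaks per Mb, against 15.6, 15.3, 15.9 and 14.8 over all chromosomes and 15, 18.8, 13.8 and 10 in the 100 kb flanks of the clusters. FOXL2 had 3 and 1 peaks there in vehicle libraries, and 2 and 2 in activin libraries, or 6.1, 2.03, 4.06 and 4.06 per Mb, against 31.8 to 37.1 over all chromosomes and 40 to 41.2 in the flanks. In every H3K27ac and FOXL2 library the 4 clusters pooled thus held fewer peaks per Mb than their pooled flanks. This did not hold for each cluster alone. In activin replicate 2 the Hoxc cluster held 1 H3K27ac peak and its 100 kb flanks 0. For FOXL2 in that replicate, the Hoxc cluster and its longer flanks held 1 peak each. The Hoxd flanks gave 20 to 23 of the 32 or 33 FOXL2 flank peaks in each library. SMAD2/3 had none in the clusters, against 2.95 and 2.27 per Mb over all chromosomes and 2.5 and 1.25 in the flanks of the activin libraries.

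**Figure D2:**
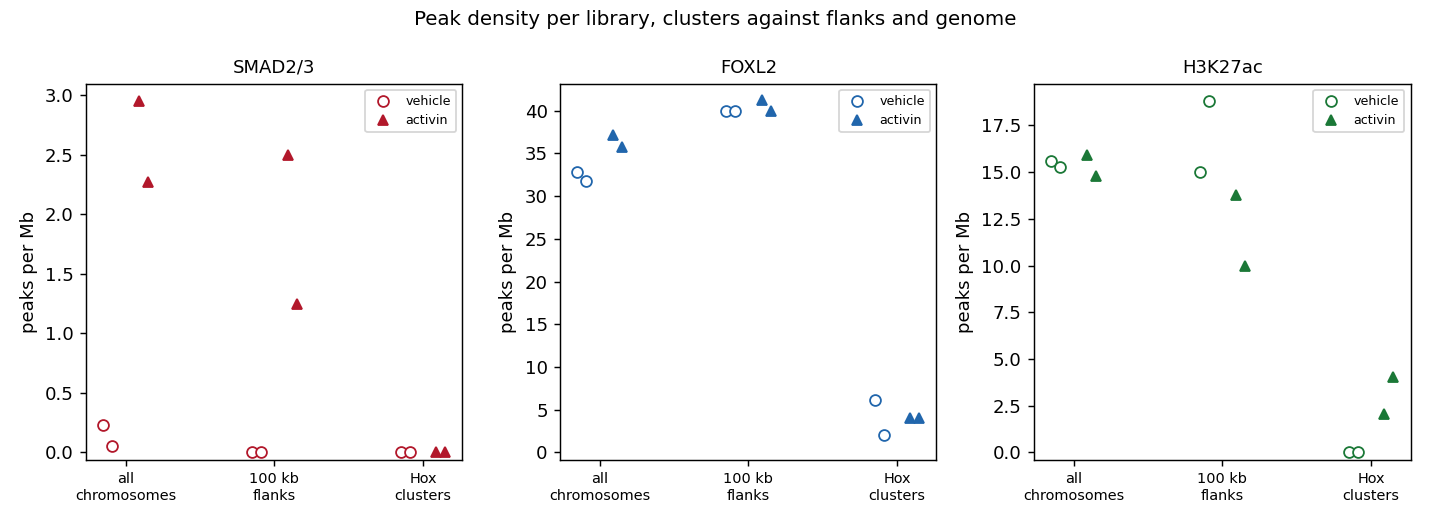
Peaks per Mb in each library over all chromosomes, in the 100 kb flanks and inside the 4 Hox clusters, for vehicle (open circles) and activin (filled triangles). FOXL2 and H3K27ac points inside the clusters lie below every flank and genome point of the same target, at no more than 6.1 and 4.06 peaks per Mb.

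The clusters differed in what little they held. The Hoxb cluster had no peak of any target in any library. The Hoxa cluster had the Hoxa7 acetylation and 3 FOXL2 regions between Hoxa11 and Hoxa13, all named for the noncoding gene 9530018H14Rik. Of these, chr6:52255978-52256465 had a peak in vehicle replicate 1 and activin replicate 1, at percentiles 6.26 and 15.3, and the other 2 were each in 1 vehicle library. The Hoxc cluster had the Hoxc4 and Hoxc6 peaks. The Hoxd cluster had the Hoxd12 peak and a FOXL2 peak in the body of Hoxd3, chr2:74719341-74719577, named for the microRNA gene Mir10b and called in vehicle replicate 1 at percentile 0.137. Of the 6 FOXL2 regions inside the clusters 5 were in 1 library alone and none was in all 4. Of 16 noncoding genes of the clusters that were looked up, among them Hotair, Hottip and Mir196b, Mir10b was the only one named in any table.

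Distances from gene bodies to peaks give a value for all 39 Hox genes. These 39 distances come from 4 loci and are not independent of each other. In vehicle the nearest H3K27ac peak of either library lay 60.2 kb (Hoxd1) to 235 kb (Hoxb1) away, with a median of 140 kb, while the median of 21887 protein-coding genes was 0, an overlap. No Hox gene was within 1000 bp of a vehicle H3K27ac peak, against 55.5% of protein-coding genes, and all 39 were more than 50 kb away, against 25%. With activin the median was 77.1 kb and 1 gene, Hoxc4, was within 1000 bp (55% of protein-coding genes). The shorter median came from the Hoxa genes, whose median was 117 kb with vehicle and 16.8 kb with activin, and the Hoxc genes, at 178 and 45.2 kb. The activin distances of Hoxa3 to Hoxa13 all ran to the Hoxa7 peak, and those of all Hoxc genes to the Hoxc4 peak. They are thus not separate changes at each gene. The Hoxd median was 96.2 kb with both treatments, and the Hoxb median was 167 kb with vehicle and 182 kb with activin. Without activin replicate 2, which alone held the Hoxc4 peak, the activin median over all Hox genes was 117 kb, and with peaks of −log10 q of at least 5 alone it was 118 kb with no gene within 1000 bp.

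**Figure D3:**
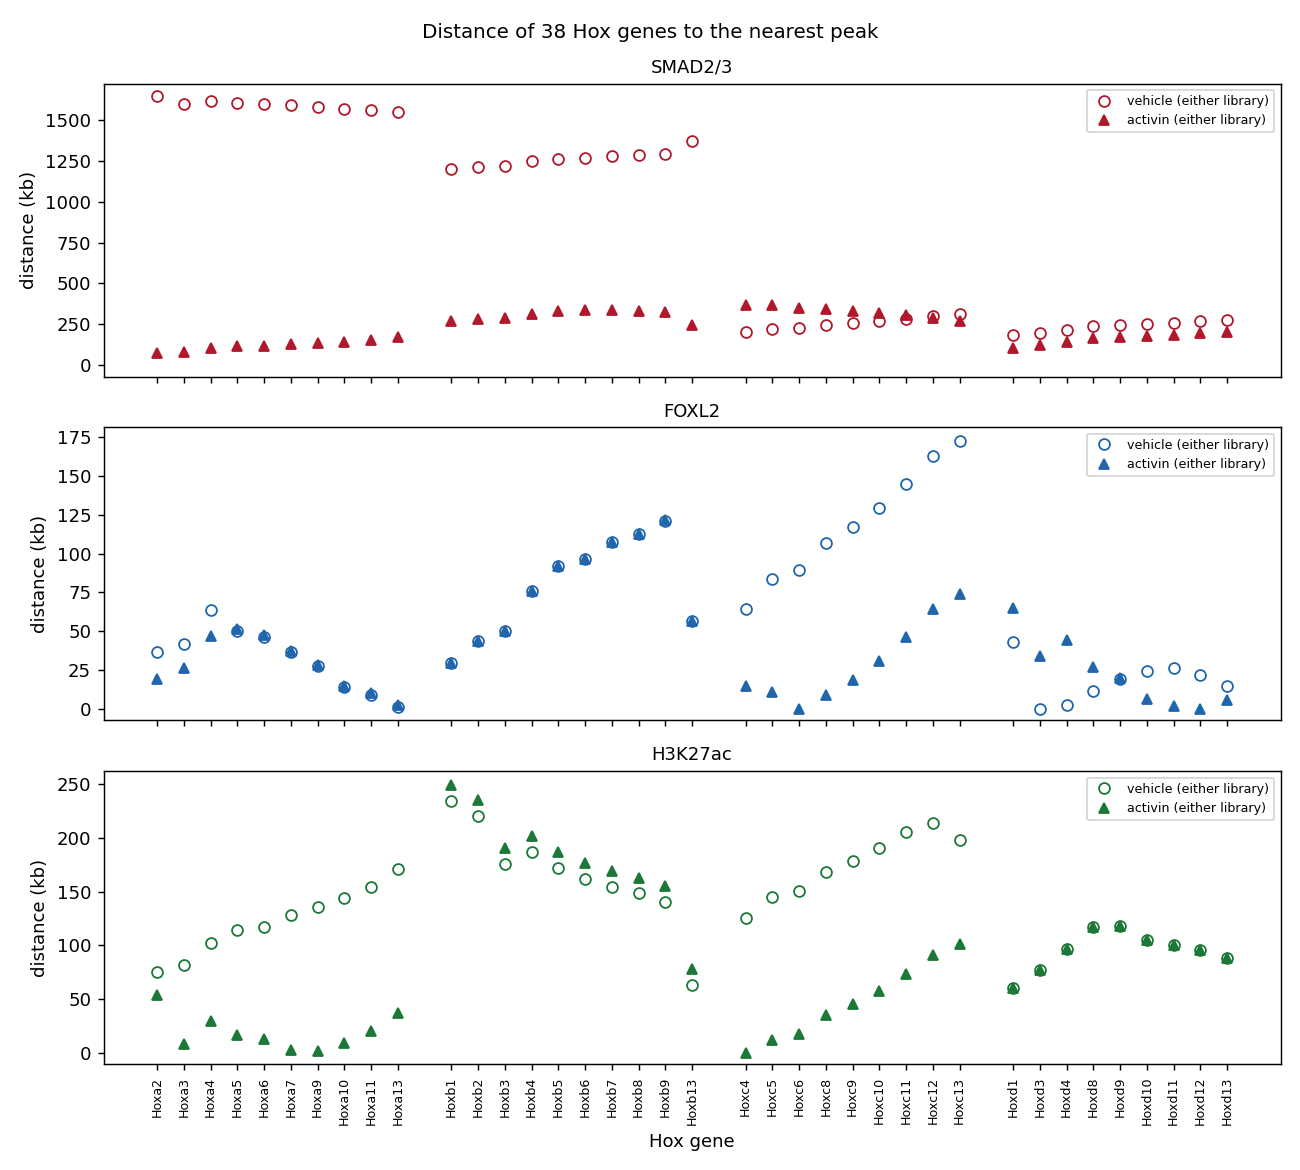
Distance in kb from each of 38 Hox genes to the nearest SMAD2/3, FOXL2 and H3K27ac peak in either vehicle library (open circles) and either activin library (filled triangles). Vehicle H3K27ac distances all exceed 60 kb, and activin points lie below them for the Hoxa and Hoxc genes drawn.

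FOXL2 peaks came closer. The median distance of the Hox genes was 46.4 kb with vehicle and 31.2 kb with activin, against 2.02 and 1.68 kb for all protein-coding genes. With vehicle 1 Hox gene, Hoxd3, was within 1000 bp (47.9% of protein-coding genes), and with activin 2, Hoxc6 and Hoxd12 (48.5%). Without activin replicate 2 the activin median was 56.6 kb and no Hox gene was within 1000 bp. By position in the cluster, the activin medians were 31.9 kb for paralogues 1 to 3, 46.8 kb for 4 to 8 and 19.3 kb for 9 to 13. The vehicle medians were 39.4, 76.2 and 27.1 kb in the same order. The activin distances of all Hoxc genes ran to the Hoxc6 peak, called in activin replicate 2 alone. These groups also mix clusters, as Hoxc has no gene with a paralogue number from 1 to 3. SMAD2/3 peaks of the activin libraries were up to 370 kb (Hoxc4) away, with a median of 202 kb against 125 kb for all protein-coding genes, and no Hox gene was within 1000 bp (12.1% of protein-coding genes). In vehicle the SMAD2/3 median was 1215 kb against 1322 kb, from short lists of 605 and 144 peaks (3229 kb for the Hox genes without vehicle replicate 1), and again no Hox gene was within 1000 bp (1.51%).

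**Figure D4:**
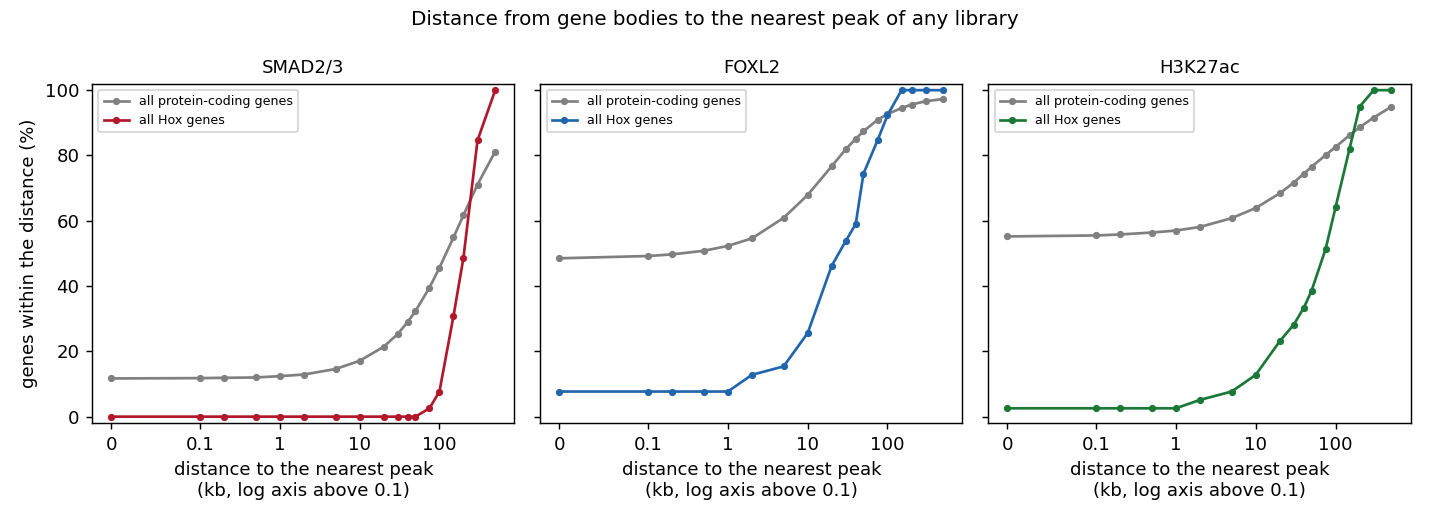
Share of genes (%) whose body lies within a given distance (kb, log axis above 0.1) of the nearest peak in any of the 4 libraries of a target, for all 39 Hox genes (coloured) and all protein-coding genes (grey). The Hox curves start near 0 and meet the grey curves at about 100 kb or beyond.

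The distances of Hox genes to called peaks were set beside those of genes of like crowding. Among 1335 protein-coding genes with at least 8 neighbours within 50 kb, 10.9% had no H3K27ac peak within 50 kb in any library, and 9 of the 17 Hox genes among them (52.9%) had none. For FOXL2 the shares were 8.54% and 2 of 17 (11.8%), and for SMAD2/3 64.3% and 17 of 17. Median distances were 57.8 kb for these 17 Hox genes against 0 for the 1318 other crowded genes with H3K27ac. They were 26.2 against 4.1 kb with FOXL2 and 166 against 92.3 kb with SMAD2/3. The 17 genes share a few loci and are not independent of each other. The Hox distances were also set beside those of 10 other families of developmental transcription factors, all of these families chosen after values were seen. No Dlx gene of 6 and 1 Nkx gene of 14 lay within 1000 bp of an H3K27ac peak in any library, with median distances of 74.2 and 51.4 kb, beside 73 kb for the Hox genes over the same libraries. In the other 8 families the share was higher, the lowest of them being 4 of 13 Tbx genes, with a median of 27.9 kb. The Hox share in any library was 1 gene of 39, so among these 10 families the Dlx and Nkx genes came closest to it. For FOXL2, 3 of 39 Hox, 1 of 6 Dlx and 0 of 14 Nkx genes lay within 1000 bp of a peak in any library, with medians of 27.7, 13.1 and 12.4 kb.

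At the starts themselves, no Hox gene had a peak of any target within 1000 bp in both libraries of a treatment. For H3K27ac 25.2% of 28467 gene names did with vehicle and 24.5% with activin, for FOXL2 7.81% and 8.64%, and for SMAD2/3 0.0527% and 0.583%. With a limit of 2000 bp, Hoxa7 was counted for H3K27ac with activin.

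The regions that all 4 libraries shared stopped short of the clusters. The stretch with no such H3K27ac region was 552.0 kb long around Hoxa, 662.5 kb around Hoxb, 489.9 kb around Hoxc and 245.8 kb around Hoxd. The region closest to a Hox gene was at the promoter of Mtx2, which encodes a mitochondrial outer membrane protein, 60.2 kb beyond Hoxd1 (chr2:74825316-74826735). Its fold enrichment was 4.79 and 4.47 under vehicle, and 4.91 and 6.09 under activin. For FOXL2 the stretches were 450.3, 260.1, 412.2 and 179.0 kb. Each stretch includes flanks as well as the cluster. Stretch lengths elsewhere in the genome were not computed for either target, so these lengths have no baseline here. The closest shared FOXL2 region lay 15.0 kb beyond Hoxd13, at the transcription end of Evx2, a homeobox gene beside the cluster (chr2:74652570-74653217), with a fold enrichment in vehicle replicates 1 and 2 of 17 and 7.53 and in the activin replicates of 12.4 and 11.7. Within 100 kb of the 4 clusters there were 38 FOXL2 regions outside them, 27 of which were in all 4 libraries, and 23 of the 38 flanked Hoxd.

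SMAD2/3 came within 100 kb of a cluster at Hoxa only, beside Halr1, a noncoding gene. The region chr6:52074925-52075804 had a peak in both activin libraries (fold enrichment 9.95 and 7.76) and in neither vehicle library. FOXL2 had a peak over it in all 4 libraries, at percentiles 94 and 94.5 in vehicle lists, and 96.8 and 95.9 in activin lists. H3K27ac did too, at percentiles 63.6 and 62.2 with vehicle and 86.8 and 87.1 with activin, so that both activin libraries ranked it above both vehicle libraries. A second SMAD2/3 peak near Halr1 was in activin replicate 1 alone. Other shared H3K27ac regions in the flanks went both ways. Beside Hoxd, chr2:74845868-74850160 had lower percentiles under activin (64.9 and 61.7) than under vehicle (88.9 and 88.1). So did chr11:96114330-96115333 beside Hoxb (31.6 and 7.22, against 74.4 and 63.6). Those at chr6:52084727-52087499 and the Mtx2 promoter ranked higher in both activin lists, and at chr2:74577731-74579544 the treatments overlapped. How often shared H3K27ac regions separate by treatment was not computed. On the Hoxb13 side the H3K27ac peaks within 100 kb numbered 5 and 6 with vehicle and 3 and 1 with activin, with no overlap (exact permutation p = 0.333, adjusted p = 1 over 15 flank comparisons). They lay near Calcoco2 and Ttll6, more than 60 kb from Hoxb13. The 2 regions chr11:96116647-96117655 and chr11:96127709-96129196 were vehicle-only, as were 6.31% of all H3K27ac regions. The region chr11:96114330-96115333 was in all 4 libraries and was split into separate peaks in activin replicate 1. Peak counts therefore do not give the acetylated extent, and the length covered was not compared here.

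Partners of Hox proteins were looked up in the same way. Pbx, Meis and Pknox genes encode homeodomain cofactors that bind DNA with Hox proteins, and Cdx genes encode upstream regulators of the clusters. Of 11 such genes, 4 (Pbx2, Meis1, Pknox1 and Pknox2) had an H3K27ac peak within 1000 bp of the start in both libraries of both treatments, beside the 25.2% of all gene names with vehicle and 24.5% with activin given above. The list held 12 H3K27ac regions, 6 of them in all 4 libraries (47.1% of all H3K27ac regions) and 1 activin-only (Pbx4; 5.82% of all). It held 32 FOXL2 regions, 19 in all 4 libraries (47.1% of all FOXL2 regions) and none activin-only (8.72% of all). SMAD2/3 had 2 regions in the list, at Pbx3 and Pknox2. Both were activin-only, as were 54.1% of all SMAD2/3 regions, so these 2 calls do not set the list apart. The Cdx genes had no H3K27ac or SMAD2/3 region, and Cdx2 was named in no table.

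The label of the cells was checked on the same lists. All 7 gonadotrope markers given here (Cga, Lhb, Fshb, Gnrhr, Nr5a1, Pitx1 and Egr1) were named for peaks, and 6 had an H3K27ac region, Fshb being the exception. Of 6 genes of other pituitary lineages 2 (Prl and Pomc) had one, and of 4 markers of other cells 1 (Pecam1) had. None of these 10 had an H3K27ac peak within 1000 bp of the start in both libraries of a treatment, against 2 of the 7 gonadotrope markers with vehicle (Lhb and Nr5a1) and 3 with activin (these and Egr1). Over all gene names the shares were 25.2% and 24.5%, so this count does not set the gonadotrope markers apart. For comparison, 2 of 39 Hox genes were named for an H3K27ac region, both in activin lists alone, and none had one at its start by this rule. The share of all gene names with an H3K27ac region at any distance was not computed. The counts of genes with such a region, in the marker lists and among the Hox genes, therefore have no baseline here.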

How the data were processed

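The SMAD2/3, FOXL2 and H3K27ac lists hold 1 peak list and 1 annotation table per library. Bowtie2, MACS2, HOMER and the builds GRCm38 and mm10 are named in the submitters' processing notes, without versions. Per the file headers, annotatePeaks of HOMER produced the annotation, with a nearest gene and a distance to its start for each peak. The deposited peaks carry the authors' fold enrichment (a linear ratio), −log10 p, −log10 q and a score. Their background is not given in the sources used here. A Protein-A control sample was not analysed here.

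Depth is unknown. The deposited lists held 605, 144, 7784 and 5970 SMAD2/3, 86401, 83834, 97701 and 94006 FOXL2, and 41150, 40398, 41763 and 38995 H3K27ac peaks (vehicle replicates, then activin). A percentile is a rank by −log10 q within 1 list. Peaks of a target's 4 libraries were merged at 1 bp of overlap, and shares of regions are over those within 100 kb of a start. Peaks per Mb used each chromosome up to its last peak. Cluster ends are RefSeq gene ends (GRCm38.p6). Coordinates count from 1. The start used in the annotation differed from RefSeq's gene end by 1820 bp at Hoxa7, 2303 bp at Hoxc6, 837 bp at Hoxc4 and 0 bp at Hoxd12. Counts per library were tested by exact permutation (two-sided, 6 labellings), in Python 3.11.15 with pandas 2.3.3 and NumPy 2.4.6. Region calling was tested on simulated data. No gene was named for its rank: all members are named, other genes come from lists or lie next to the clusters. Some items of these lists are not reported here.

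The members and lists were chosen with earlier results of these data known. Gene-body distances, crowded genes, the 10 families and shared-region stretches were added after seeing the data. Alternatives changed the distance limit, the −log10 q minimum, the overlap, the span and the libraries kept.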

Additional observations from a re-analysis of the deposited data

How the results depend on the processing

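Of 127 recomputed values of the member comparisons, 121 kept their direction or, for counts, stayed within 1.5 times, many of them counts of 0 with little room to change. None reversed. Of 42 recomputed distances and gene-body counts 13 moved by more than 1.5 times. At −log10 q of at least 5 the differences were 0.5 peaks for FOXL2, 0.5 for H3K27ac and 122 bp, in place of 1, 1.5 and 413. Counting all peaks centred in the clusters with 5000 bp on both sides gave a FOXL2 difference of 0 in place of 1. Leaving out 1 library at a time gave a FOXL2 difference from 0 (without activin replicate 2) to 2, and from 0 to 2 activin-only FOXL2 regions. Activin-only H3K27ac regions numbered from 1 to 2 in this way, and 0 when presence needed −log10 q of at least 5, since the Hoxa7 peak of activin replicate 1 was just below it. Within 2000 bp, 1 Hox start had an H3K27ac peak in both activin libraries. Allowing for the replicate block left the differences at 1, 1.5 and 413 bp, with a smallest possible p of 0.5. Deviations of same-numbered libraries correlated at 0.132 for FOXL2 and -0.0281 for H3K27ac, so the numbers were not taken as pairs. Cluster spans used RefSeq gene ends, as starts could be derived from the tables for 4 Hox genes only. The planned overlap rule was met by every peak by its construction and shows nothing; presence by a peak over at least 0.5 of the merged region, added later, changed no Hox count. Rank differences could not be computed, as no Hox region was in all 4 libraries. With depth unknown, peaks under the calling threshold cannot be told from absent ones.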
